A study of Mus musculus with 6 samples.

Results

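Mitochondrial ribosomal protein genes were examined in splenic CD4+ T cells of premenopausal mice given angiotensin II and of control mice. The members were taken by name alone, as every gene named Mrpl or Mrps with a number and at most 1 further letter, pseudogene names left out. The rule found 77 genes among 39171 in the library files. All 77 passed the filter of a mean of at least 1 FPKM (fragments scaled to transcript length and library size) over the 6 libraries, so that every member is among the 11842 genes tested. Of the members, 50 encode proteins of the large subunit of the mitochondrial ribosome and 26 encode proteins of the small subunit. Names do not always give the subunit, since the products of Mrps30 and Mrps18a sit in the large subunit. The remaining member, Mrps36, encodes a component of the 2-oxoglutarate dehydrogenase complex and no ribosomal subunit.

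The AngII group was C57BL/6 mice, 10 weeks old at the start, that received angiotensin II, the peptide hormone of the renin-angiotensin system, from an osmotic minipump at 800 ng/kg/min for 14 days. The Control group was untreated C57BL/6 mice of the same age kept over the same 2 weeks. Each group had 3 mice and 1 library per mouse, so p-values measure the spread between these mice. CD4+ T cells were taken from spleen suspensions with a magnetic isolation kit. The comparison asks how their transcripts differ after angiotensin II infusion in females with ovarian function. Blood pressure was not examined here.

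Mitochondria translate the few messengers of their own genome on a ribosome of bacterial descent. Its ribosomal RNAs come from the mitochondrial genome, whereas all its proteins are encoded in the nucleus, made in the cytosol and imported. Its products are core subunits of the respiratory chain and ATP synthase, and T cells expand this machinery when they leave quiescence.

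Library totals ranged from 613674 to 717286 FPKM, with 11438 to 11757 genes at 1 FPKM or more. The absolute depth is unknown, but the steps between low FPKM values put the worth of 1 fragment at 0.885 to 1 of that in Control replicate 1, so the depths were similar. Markers of helper T cells were present throughout: Cd4 lay at 214 to 238 FPKM in AngII and at 203 to 254 FPKM in Control. Of the 10 helper T cell markers 8 had a negative fold change, AngII over Control, with a median of -0.072 on the log2 scale, and none passed the test. Their summed FPKM was 4161, 4265 and 4745 in AngII replicates 1 to 3, against 5031, 4968 and 4216 in Control replicates 1 to 3, and the part of this lean in the values below was not tested. The marker of cytotoxic T cells, Cd8a, stayed at or below 1.67 FPKM, while Cd8b1 reached 12.01 FPKM. RNA of other spleen cells differed among the libraries. Summed FPKM of 8 neutrophil genes was 29.1, 90.3 and 82.0 in AngII replicates 1 to 3, against 9.96, 10.3 and 53.3 in Control replicates 1 to 3. The granulocyte surface marker Ly6g was listed at 0 in 5 of 6 libraries. Summed FPKM of 8 platelet genes was 242, 184 and 216 in AngII and 94.4, 110 and 291 in Control. The 10 macrophage genes summed to 1429, 2736 and 1384 FPKM in AngII and to 1120, 1563 and 1909 FPKM in Control. For 8 B cell genes the sums were 584, 946 and 814 FPKM in AngII and 655, 740 and 1155 FPKM in Control. All 6 natural killer cell genes had a negative fold change, with a median of -0.32, and none passed the test. In bulk RNA, fewer cells of a type and less RNA per cell cannot be told apart.

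Every mitochondrial ribosomal protein gene was expressed in every library, at moderate levels and with a narrow spread. Mean levels over the 6 libraries ran from 5.87 FPKM for Mrpl1 to 132 FPKM for Mrpl52, a range of 22.5-fold, with a median of 27.2 FPKM. Of the 77 genes, 62 lay between 10 and 50 FPKM, 7 above and 8 below. No member was listed at 0, and the lowest value in any library was 5.11 FPKM. The median standard deviation over the 6 libraries was 0.110 on the log2(FPKM + 1) scale, against 0.116 for the 7663 other tested genes in the same range of levels. Across the members, log2 values of any pair of libraries correlated at r = 0.974 to 0.993, a description that mostly reflects the fixed order of gene levels.

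The order of levels was led by genes of both subunits. Mrpl52, a large-subunit protein found in mitochondrial but not in bacterial ribosomes, had 107, 141 and 122.8 FPKM in AngII replicates 1 to 3, against 138, 141 and 141 FPKM in Control replicates 1 to 3. The lowest value came from AngII replicate 1, and AngII replicate 2 lay within the Control range. Mrps21, of the small subunit, had 87.6, 85.6 and 82.6 FPKM in AngII and 89.7, 91.5 and 98.9 FPKM in Control. Mrps16, a small-subunit protein with a bacterial counterpart, came next, then Mrpl24, whose bacterial counterpart starts the folding of the large ribosomal RNA, and Mrpl30. Mrpl24 averaged 65.1 ± 4.83 FPKM in AngII and 66.4 ± 3.73 FPKM in Control (SD, n = 3 each). Mrpl30 averaged 57.7 ± 3.50 FPKM in AngII and 64.1 ± 4.39 FPKM in Control (SD, n = 3 each), so that Mrps16, Mrpl24 and Mrpl30 are neighbours whose values overlap.

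The low end of the order was held by Mrpl1, Mrpl47 and Mrpl11. Mrpl1, whose counterpart forms the mobile stalk near the exit site for transfer RNA, had 5.11, 5.89 and 6.04 FPKM in AngII and 5.47, 6.56 and 6.12 FPKM in Control. Mrpl47, beside the peptide exit tunnel, averaged 6.47 ± 0.493 FPKM in AngII and 6.30 ± 0.439 FPKM in Control (SD, n = 3 each). Mrpl11, at the base of the factor-binding stalk, averaged 6.82 ± 1.15 FPKM in AngII and 6.92 ± 0.551 FPKM in Control (SD, n = 3 each). Mrpl11 was above Mrpl1 in every library, whereas the values of Mrpl47 overlapped with those of both. For each of these 3 genes the AngII and Control values overlapped.

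**Figure D1:**
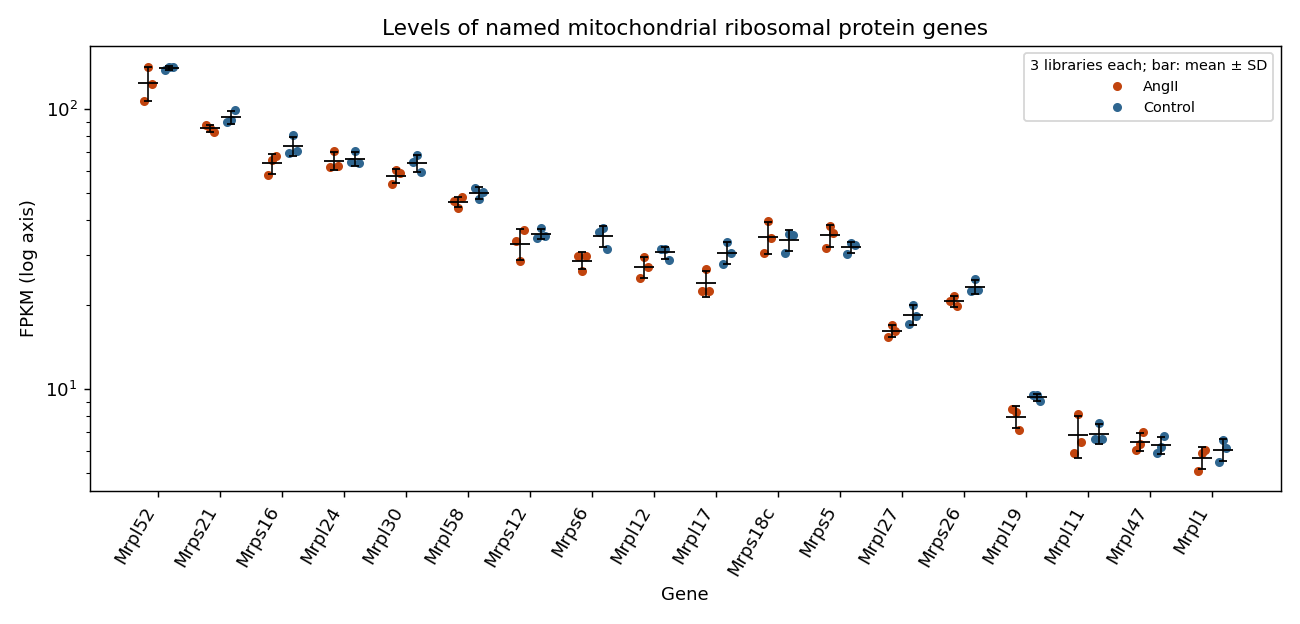
Levels of 18 mitochondrial ribosomal protein genes (vertical axis, FPKM on a log scale), with AngII libraries in orange left of Control libraries in blue; bars give mean ± SD of 3 libraries. Mrpl52 stands highest and Mrpl1 lowest, and within most genes the points of both groups overlap, whereas Mrpl17, Mrps6, Mrps16, Mrps21, Mrpl27, Mrps26 and Mrpl19 have all 3 AngII points below all 3 Control points.

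No mitochondrial ribosomal protein gene passed the test between AngII and Control. With limma on log2(FPKM + 1) and Benjamini-Hochberg adjustment over all 11842 genes tested, 0 of 77 members reached an adjusted p under 0.05, where 0.0338% of all genes did (4 genes, all lower in AngII). The smallest adjusted p of a member was 0.9999. At an unadjusted p under 0.05 limma gave 4 members, Mrpl17, Mrps6, Mrpl19 and Mrps26, all lower in AngII, against 1.76% of all genes. Estimated differences were small, as for most genes. Of 77 members, 75 lay within 0.25 of 0 on the log2 scale, and of all 11842 genes tested 962 lay further out. The median distance from a member's estimate to the bound of its 95% interval was 0.21, from 0.12 to 0.38. For 24 members the interval reached 0.25 on neither side.

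The members leaned to one side together. The log2 fold change, AngII over Control, was negative for 67 of 77 members, against 52% of all genes tested, and positive for 10. Its median was -0.078 over the members and -0.0040 over all genes, and the members ran from -0.35 for Mrpl17 to 0.14 for Mrps5. Summed over all members, levels were 2023, 2261 and 2189 FPKM in AngII replicates 1 to 3, against 2236, 2402 and 2284 FPKM in Control replicates 1 to 3, and the ranges of both groups overlapped. Scaling every library to an equal sum of FPKM left 41 members negative (27.6% of all genes) with a median of -0.014. Under that scaling the median of all genes was 0.058. The members' median relative to all genes was -0.072, against -0.074 without scaling. Such scaling multiplies each library by 1 factor and shifts all genes by nearly the same amount. The relative median could therefore hardly change, and it cannot show whether the lean depends on scaling.

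**Figure D2:**
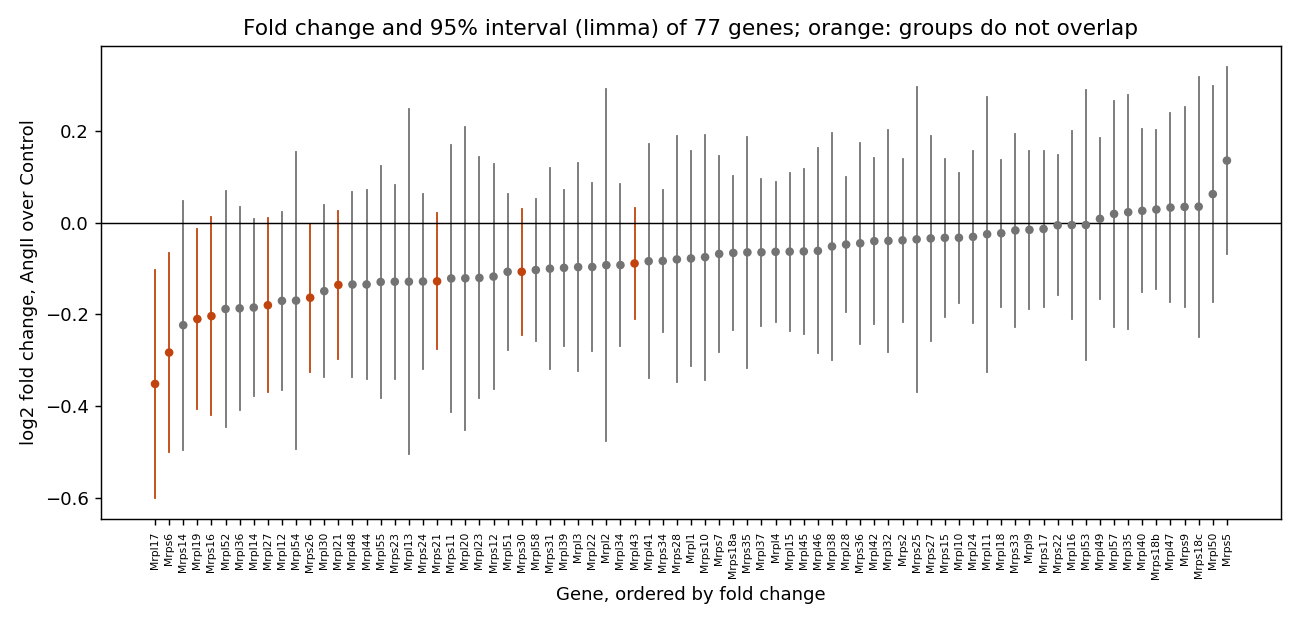
Log2 fold change (vertical axis, AngII over Control, log2(FPKM + 1) scale) of all 77 genes in order of size, with 95% intervals from limma; orange marks genes whose groups do not overlap. Estimates run from -0.35 to 0.14, 67 of them are negative, and 4 intervals do not hold 0.

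In 10 members every AngII library was below every Control library (13.0%, where 3.48% of all genes tested did so), and in none was every AngII library above every Control library (2.36% of all genes). Under equal-sum scaling these counts were 0 members below and 1 above, where 5.37% of all genes did not overlap in either direction. Mrpl17, a protein beside the peptide exit tunnel, had 22.4, 26.7 and 22.3 FPKM in AngII, against 27.8, 33.4 and 30.6 FPKM in Control. The highest AngII value of Mrpl17 lay just under the lowest Control value. Its log2 fold change was -0.35 ± 0.10 (SE). Mrps6, on the platform of the small subunit, had 29.8, 26.4 and 29.9 FPKM in AngII, against 36.2, 37.5 and 31.7 FPKM in Control. AngII replicate 2 was the lowest library of Mrps6, and Control replicate 3 was close to the AngII range. The log2 fold change of Mrps6 was -0.28 ± 0.088 (SE).

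Mrpl19, a large-subunit protein with a bacterial counterpart, had 8.49, 8.24 and 7.13 FPKM in AngII, against 9.49, 9.48 and 9.04 FPKM in Control, with AngII replicate 3 lowest. Its log2 fold change was -0.21 ± 0.080 (SE). Mrps16 had 58.1, 65.8 and 67.7 FPKM in AngII, against 69.7, 80.3 and 71.0 FPKM in Control. Here Control replicate 2 stood above the other 5 libraries, and the other two Control values were close to the upper AngII values. Mrpl27, which lies near the peptidyl transferase centre of the large subunit, had 15.3, 16.9 and 16.1 FPKM in AngII, against 17.02, 19.9 and 18.2 FPKM in Control. The groups of Mrpl27 nearly touched, at AngII replicate 2 and Control replicate 1.

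The log2 fold changes of Mrps16 and Mrpl27 were -0.20 ± 0.088 and -0.18 ± 0.077 (SE), and the limma adjusted p was 0.9999 for each of these 5 genes. Mrps26, a small-subunit protein specific to mitochondria, had 20.5, 21.5 and 19.7 FPKM in AngII and 22.3, 24.6 and 22.6 FPKM in Control, a log2 fold change of -0.16. Mrps21 and Mrps30 were also among the 10. Mrps30 had 20.7, 20.9 and 21.0 FPKM in AngII, against 23.5, 22.7 and 21.5 FPKM in Control, a log2 fold change of -0.11. The other two, Mrpl21 and Mrpl43, fall outside the naming rule and were named after their values were seen. Their log2 fold changes were -0.14 for Mrpl21 and -0.089 for Mrpl43.

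At the other end, Mrps5, a small-subunit protein beside the path of messenger RNA, had the most positive log2 fold change, 0.14, and was likewise named after its values were seen. It had 31.7, 38.1 and 36.1 FPKM in AngII and 30.4, 33.0 and 32.6 FPKM in Control, so AngII replicate 1 lay among the Control values (limma adjusted p = 0.9999). Mrpl14, at the face that meets the small subunit, had 24.98, 26.7 and 29.0 FPKM in AngII and 28.5, 31.9 and 31.6 FPKM in Control, with AngII replicate 3 above the lowest Control value (log2 fold change -0.18).

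Large and small subunit genes gave similar medians. The median log2 fold change was -0.086 over 50 large-subunit genes, of which 44 were negative, and -0.072 over 26 small-subunit genes, of which 22 were negative. Of all genes tested 52% were negative. Groups did not overlap for 6 large-subunit genes (12%) and 4 small-subunit genes (15.4%), all lower in AngII, where 3.48% of all genes tested did so. The ratio of the large-subunit to the small-subunit median level was 0.984, 0.971 and 0.923 in AngII replicates 1 to 3, against 1.06, 1.01 and 1.02 in Control replicates 1 to 3, so all 3 AngII ratios were lower, a difference that was not tested. Proteins inherited from the bacterial ribosome (47 genes, median -0.080, 41 negative) and proteins found in the mitochondrial ribosome alone (29 genes, median -0.065, 25 negative) also lay close together.

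By position in the ribosome, the counts were as follows. Near the peptidyl transferase centre, where peptide bonds form, 5 of 5 genes were negative with a median of -0.093. Around the exit tunnel 5 of 6 genes were negative with a median of -0.080, and in the central protuberance 6 of 7 with a median of -0.061. In the factor-binding stalk 5 of 5 genes were negative with a median of -0.033. In the head of the small subunit 4 of 5 were negative with a median of -0.075, and on its platform 2 of 3. None of these groups held a gene past the adjusted threshold in limma, and 1 gene each on the platform (Mrps6) and at the tunnel exit (Mrpl17) had an unadjusted p under 0.05.

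No member with a special role passed the test. The log2 fold changes of Mrpl12, Mrps12, Mrpl58 and Mrps30 were more negative than the members' median of -0.078. Those of Mrps36 (-0.045) and of the Mrps18 paralogs given below were not. Mrpl12, the stalk protein that in human cells also binds the mitochondrial RNA polymerase, had 24.9, 29.5 and 27.2 FPKM in AngII and 31.5, 31.6 and 29.0 FPKM in Control. Its groups overlapped only through AngII replicate 2 and Control replicate 3 (log2 fold change -0.17 ± 0.079 SE). Mrps12, at the decoding centre, averaged 33.0 ± 4.13 FPKM in AngII and 35.7 ± 1.56 FPKM in Control (SD, n = 3 each). Mrpl58, a ribosome-bound hydrolase that frees stalled peptides, averaged 46.6 ± 1.98 FPKM in AngII and 50.1 ± 2.47 FPKM in Control (SD, n = 3 each). For Mrps12 and Mrpl58 the groups overlapped (log2 fold changes -0.12 and -0.10).

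The paralogs Mrps18a, Mrps18b and Mrps18c, alternative descendants of 1 bacterial protein that sit at different places in the ribosome, lay on different sides of 0. Mrps18a averaged 24.9 ± 1.30 FPKM in AngII and 26.1 ± 1.43 FPKM in Control (SD, n = 3 each; log2 fold change -0.066). Mrps18b averaged 24.4 ± 1.11 FPKM in AngII and 23.9 ± 1.63 FPKM in Control, and Mrps18c averaged 34.9 ± 4.65 FPKM in AngII and 33.97 ± 2.98 FPKM in Control (SD, n = 3 each; log2 fold changes 0.029 and 0.035). All these differences were smaller than the spread within a group. Mrps36, the non-ribosomal member, averaged 29.1 ± 2.95 FPKM in AngII and 29.9 ± 1.68 FPKM in Control (SD, n = 3 each).

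The members' deviations were most marked in AngII replicate 1 and Control replicate 2. The deviation of each member from its own mean over the 6 libraries had a median of -0.10, 0.0059 and -0.020 in AngII replicates 1 to 3, against -0.0011, 0.11 and 0.036 in Control replicates 1 to 3 (log2 scale). AngII replicate 1 was the lowest library in 42 of 77 members (54.5%, against 22.8% of all genes tested), and Control replicate 2 was the highest in 36 (46.8%, against 18.4%) and the lowest in none. AngII replicate 1 lay below all 3 Control libraries in 56 members, whereas AngII replicate 2 and AngII replicate 3 did so in 26 each. The share of all genes below all 3 Control libraries was not counted, so no excess of members can be read from these counts. Without AngII replicate 1, 54 of 77 members were negative (50.4% of all genes) with a median of -0.035, and without Control replicate 2, 54 were negative (48% of all genes) with a median of -0.0495. With both left out, a choice made for their values that by itself narrows the difference, 40 of 77 members were negative (47.4% of all genes) and the median was -0.0070, beside 0.0067 over all genes. In that fit the groups did not overlap for 14 members on the lower side (6.7% of all genes) and 6 on the higher side (9.65% of all genes), and limma called 0 members, with 0 at an unadjusted p under 0.05.

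**Figure D3:**
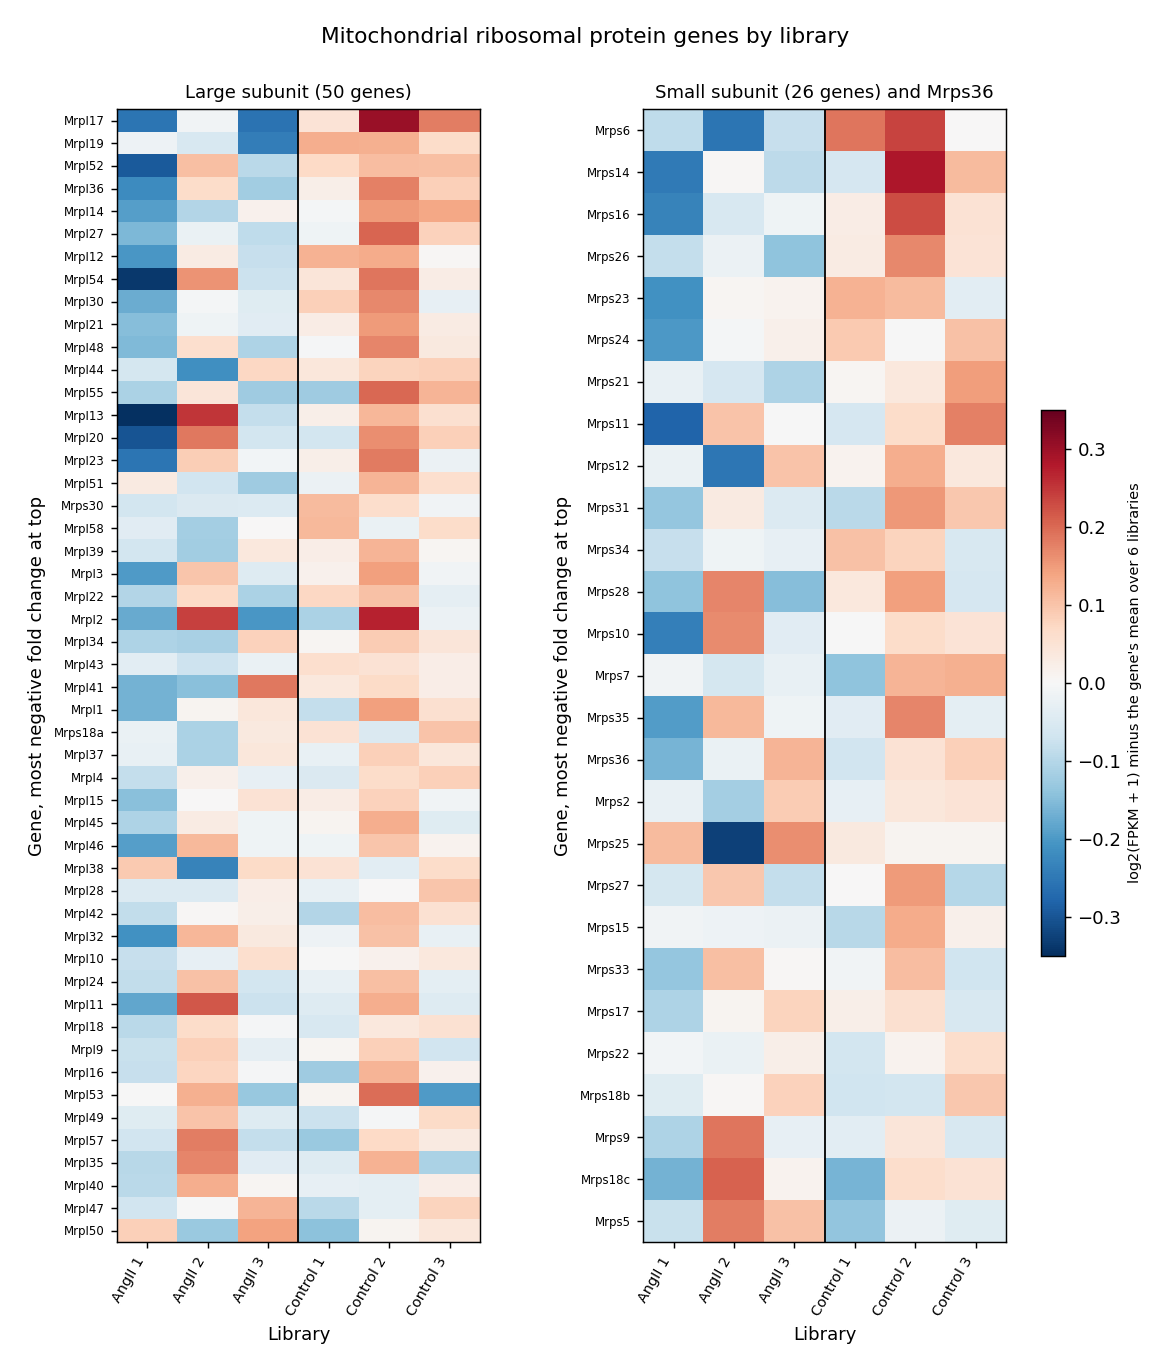
Deviation of log2(FPKM + 1) from each gene's mean over the 6 libraries (colour, blue lower and red higher) for 50 large-subunit genes at left and 26 small-subunit genes with Mrps36 at right; columns are AngII replicates 1 to 3, then Control replicates 1 to 3. The column of AngII replicate 1 is mostly blue and that of Control replicate 2 mostly red, in both subunits, while the other 4 columns are mixed.

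The widest spread over the 6 libraries was found for Mrpl17, described above, Mrpl13 and Mrpl2. Mrpl13, a large-subunit protein with a bacterial counterpart, had 20.7, 32.3 and 25.4 FPKM in AngII, against 27.4, 29.3 and 28.0 FPKM in Control, so the lowest and the highest value both came from AngII. Mrpl2, beside the peptidyl transferase centre, had 20.9, 28.2 and 20.4 FPKM in AngII, against 21.9, 28.7 and 23.3 FPKM in Control. For Mrpl2 replicate 2 was the highest library of each group. The 95% interval of the log2 fold change ran from -0.50 to 0.25 for Mrpl13 and from -0.48 to 0.29 for Mrpl2.

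Other nuclear genes for the respiratory system and for ribosomes were also low in AngII replicate 1 and high in Control replicate 2, while the other 4 libraries differed between lists. Control replicate 1 and Control replicate 3 had median deviations of 0.096 and -0.064 for cytosolic ribosomal proteins, against -0.0011 and 0.036 for the members, and these differences were not tested. Proteins of the cytosolic ribosome gave a median fold change of -0.12 with 79 of 79 genes negative, and nuclear subunits of the respiratory chain and ATP synthase gave -0.11 with 74 of 77 negative. AngII replicate 1 was the lowest library in 74 of the 79 cytosolic ribosomal protein genes and in 64 of the 77 respiratory chain genes, and Control replicate 2 was the highest in 72 and 56 of them. Median deviations of AngII replicate 1 and Control replicate 2 were -0.17 and 0.15 for cytosolic ribosomal proteins and -0.16 and 0.13 for the respiratory chain. No gene of either list passed the test with limma (unadjusted p under 0.05 for 0 cytosolic ribosomal protein genes and for 1 respiratory chain gene, Ndufa13). Ndufa13, of complex I, had 60.8, 67.4 and 66.9 FPKM in AngII and 74.1, 79.03 and 71.3 FPKM in Control.

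**Figure D4:**
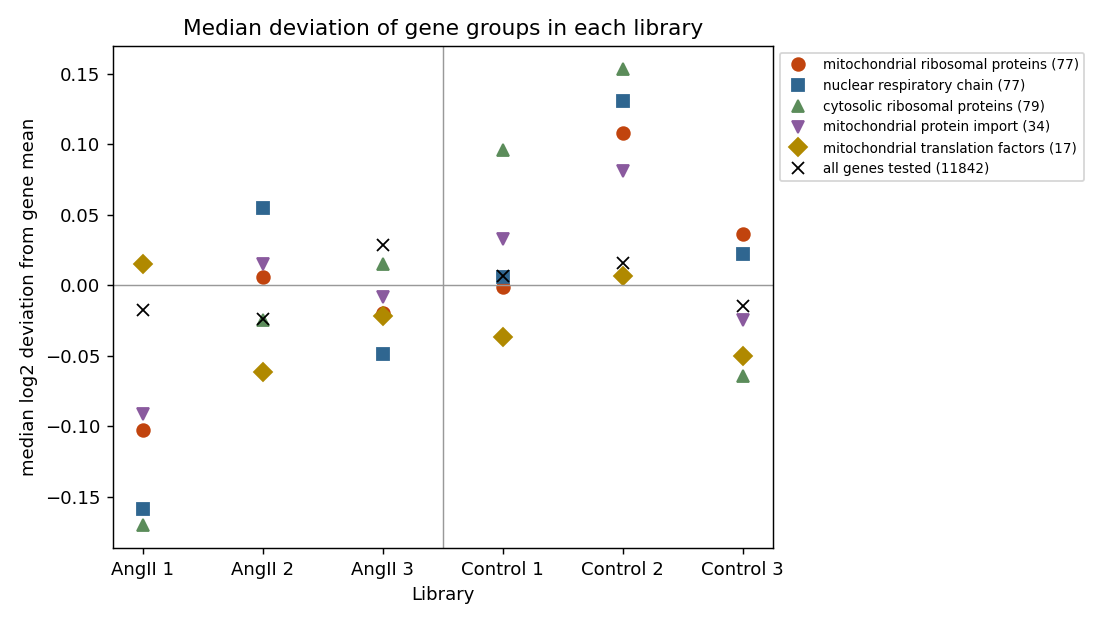
Median log2 deviation from each gene's mean (vertical axis) per library for 5 gene groups and for all genes tested. Mitochondrial ribosomal proteins, respiratory chain, cytosolic ribosomal proteins and import genes share a low value in AngII replicate 1 and a high value in Control replicate 2, whereas translation factors and all genes stay between -0.062 and 0.029.

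Transcript length moved with the library profile. The median transcript length was 1056 nt for the members and 1903.5 nt for all genes tested. Among tested genes outside the members, those under 1000 nt (2935 genes) had a median deviation of -0.091 in AngII replicate 1 and 60.5% were negative, and those over 3000 nt (3149 genes) had a deviation of 0.039 in that library and 40.8% were negative. Among members, the 35 under 1000 nt had a median fold change of -0.12 with 33 negative. The 24 members of 1000 to 2000 nt had -0.057 with 21 negative, the 9 of 2000 to 3000 nt had -0.065 with 6 negative, and the 9 over 3000 nt had -0.078 with 7 negative. The other genes over 3000 nt had a median fold change of 0.017, so the 9 long members lay lower, with no test of that difference. Immediate early genes respond within minutes to handling and activation, and all 9 were lowest in AngII replicate 1. Their summed FPKM was 2162, 3395 and 2464 in AngII replicates 1 to 3, against 3695, 3974 and 2330 in Control replicates 1 to 3. The sum was thus highest in Control replicate 2. In Control replicate 3 it lay below AngII replicates 2 and 3, whereas the members' median deviation there was 0.036. The part of transcript length, of immediate early genes and of the RNA from other spleen cells in the members' values was not tested.

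**Figure D5:**
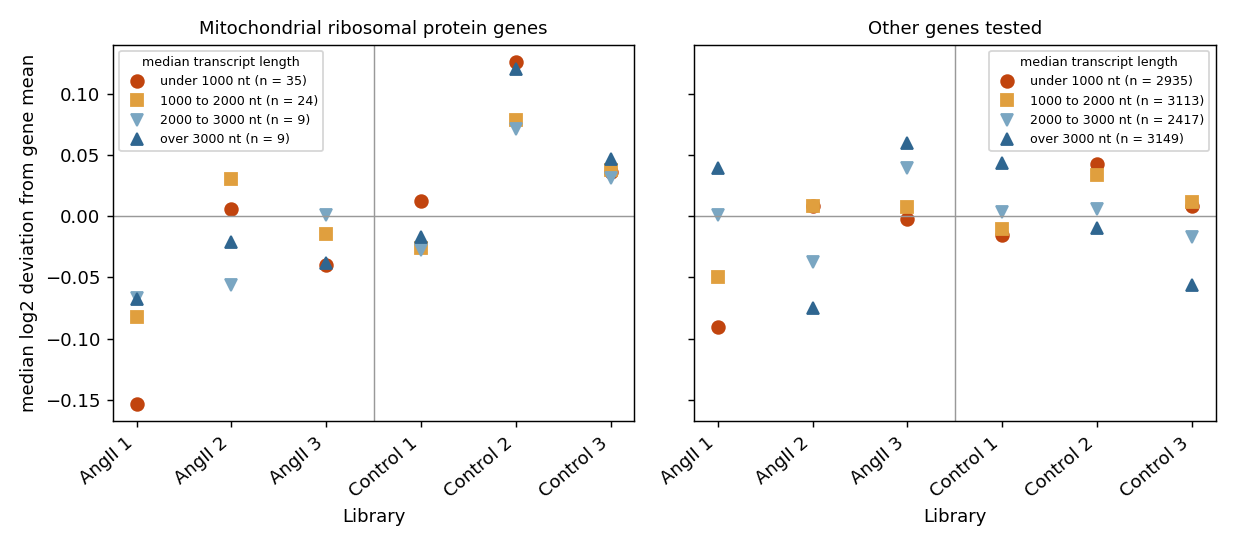
Median log2 deviation (vertical axis) per library by transcript length class, for the 77 members at left and the other tested genes at right. In AngII replicate 1 members under 1000 nt lie at -0.15 and members over 3000 nt at -0.068, while other genes lie at -0.091 and 0.039.

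The remaining genes of mitochondrial translation are given by list, with no test of the difference from the members. The 5 subunits that carry other names were all negative, with a median of -0.087 over the 4 of the small subunit. Chchd1, of the small subunit, had 22.0, 26.2 and 31.4 FPKM in AngII and 34.5, 35.5 and 29.5 FPKM in Control, and Dap3, a GTP-binding small-subunit protein, averaged 59.7 ± 2.503 FPKM in AngII and 63.1 ± 1.32 FPKM in Control (SD, n = 3 each). Gadd45gip1, of the large subunit, averaged 7.49 ± 0.542 FPKM in AngII and 7.83 ± 0.797 FPKM in Control (SD, n = 3 each). Of 36 assembly and ribosomal RNA modification factors 20 were negative with a median of -0.017. Mtg2, a GTPase of large-subunit assembly, averaged 10.4 ± 0.791 FPKM in AngII and 11.9 ± 0.452 FPKM in Control, and Grsf1, an RNA-binding protein of mitochondrial RNA granules, averaged 35.7 ± 1.44 FPKM in AngII and 32.8 ± 1.03 FPKM in Control (SD, n = 3 each). The groups of Mtg2 and of Grsf1 did not overlap, in opposite directions.

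Translation factors of mitochondria had a median of 0.016 with 8 of 17 negative, and aminoacyl-tRNA synthetases had -0.0036 with 11 of 22 negative. Mtfmt, which formylates the initiator transfer RNA, had 6.18, 4.88 and 5.94 FPKM in AngII and 4.60, 4.67 and 4.75 FPKM in Control, all 3 AngII values above all 3 Control values (log2 fold change 0.23; limma adjusted p = 0.9999). Tufm, the elongation factor that delivers transfer RNA, averaged 35.7 ± 1.90 FPKM in AngII and 37.9 ± 1.02 FPKM in Control (SD, n = 3 each). Kars, the lysyl-tRNA synthetase shared with the cytosol, averaged 56.2 ± 3.29 FPKM in AngII and 59.4 ± 0.927 FPKM in Control (SD, n = 3 each).

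Of the genes for mitochondrial transcription and DNA maintenance, 9 of 17 were negative with a median of -0.020. Rrm2b, which supplies deoxynucleotides, averaged 11.4 ± 0.417 FPKM in AngII and 9.96 ± 0.796 FPKM in Control, and Tefm, the transcription elongation factor, 5.09 ± 0.686 FPKM in AngII and 5.78 ± 0.742 FPKM in Control (SD, n = 3 each). The groups of Rrm2b did not overlap. Of the genes for mitochondrial RNA processing, 4 of 10 were negative with a median of 0.0014. Pnpt1, the polynucleotide phosphorylase, averaged 10.1 ± 0.162 FPKM in AngII and 9.24 ± 0.278 FPKM in Control, and Rexo2, the oligoribonuclease, 65.1 ± 5.47 FPKM in AngII and 72.2 ± 2.49 FPKM in Control (SD, n = 3 each). The groups of Pnpt1 did not overlap, with AngII higher. Import genes were negative in 28 of 34 cases with a median of -0.063. The small chaperones of the intermembrane space Timm10 and Timm8a1 did not overlap between groups: Timm10 averaged 10.7 ± 0.716 FPKM in AngII and 12.3 ± 1.14 FPKM in Control, and Timm8a1 averaged 7.42 ± 0.0633 FPKM in AngII and 8.42 ± 0.619 FPKM in Control (SD, n = 3 each). Limma called 0 genes in each of these lists, with 0 at an unadjusted p under 0.05.

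Nuclear regulators of mitochondrial gene expression gave 10 of 14 negative and a median of -0.025, with 0 called and 1 at an unadjusted p under 0.05. That gene was Ddit3, a stress-response transcription factor, at 17.002, 20.7 and 16.3 FPKM in AngII and 24.3, 23.7 and 21.0 FPKM in Control (log2 fold change -0.34; limma adjusted p = 0.9999). Atf4, which acts in the same stress response, averaged 116 ± 14.7 FPKM in AngII and 126 ± 11.2 FPKM in Control (SD, n = 3 each), and its groups overlapped.

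The RNA core of the mitochondrial ribosome comes from the mitochondrial genome, and its transcripts were on the higher side in AngII. The small ribosomal RNA, mt-Rnr1, had 1523, 1703 and 1263 FPKM in AngII, against 1171, 1215 and 1446 FPKM in Control (log2 fold change 0.22 ± 0.14 SE; limma adjusted p = 0.9999). The large ribosomal RNA, mt-Rnr2, had 2380, 2120 and 2077 FPKM in AngII, against 2066, 2019 and 2014 FPKM in Control (log2 fold change 0.11 ± 0.076 SE; limma adjusted p = 0.9999). All 3 AngII values of mt-Rnr2 lay above the Control values and those of mt-Rnr1 overlapped with Control. Neither passed the test, and no source used here says how far the library preparation kept ribosomal RNA.

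The members are spread over 17 chromosomes, with 11 of them on chromosome 11, per GENCODE M21 on GRCm38. A protein-coding gene on the opposite strand began within 1000 bp of the start in 33 of 77 members (42.9%), against 17.5% of the 10532 protein-coding genes tested. The share was 40.3% for the 77 respiratory chain genes and 20.3% for the 79 cytosolic ribosomal protein genes. Partners outside the members (26 tested) had a median fold change of -0.0088 with 17 negative, and the difference from the members was not tested. The pair Mrps11 and Mrpl46 is made of 2 members that face each other on chromosome 7. Mrps11, on the small-subunit platform, averaged 12.9 ± 1.83 FPKM in AngII and 14.1 ± 1.22 FPKM in Control, and Mrpl46, in the central protuberance, averaged 18.1 ± 2.01 FPKM in AngII and 18.8 ± 0.816 FPKM in Control (SD, n = 3 each). Both had their lowest value in AngII replicate 1.

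Overlapping transcription units limit some values, as no source used here says whether the libraries or the counting kept the strand. A total of 22 members overlap a protein-coding gene on the opposite strand, among them Mrpl19, which overlaps Gcfc2 (2.02 ± 0.231 FPKM in AngII and 1.78 ± 0.310 FPKM in Control; SD, n = 3 each), and Mrpl27, which overlaps Eme1 (0.914 ± 0.185 FPKM in AngII and 0.766 ± 0.147 FPKM in Control; SD, n = 3 each). Mrps6 shares its strand and part of its locus with Slc5a3, which averaged 1.34 ± 0.679 FPKM in AngII and 1.47 ± 0.196 FPKM in Control (SD, n = 3 each). Among the 55 members with no such opposite partner, 5 had groups that did not overlap, all lower in AngII, where 3.48% of all genes tested did so.

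Mrpl17 spans positions 105803206 to 105811099 on chromosome 7 and Mrps6 positions 92058270 to 92112227 on chromosome 16. Mrpl52 and Mrps16 lie on chromosome 14, at 54426909 to 54429756 and at 20389304 to 20393634. Promoter sequences are shown for Mrpl17 and Mrps6, the members of most negative fold change, for Mrpl52 and Mrps16, highly expressed members of each subunit, and for the stretch between the facing starts of Mrpl46 and Mrps11. They are RefSeq sequences of build GRCm38.p6, read 5′ to 3′ on the strand of the gene and ending at the base before its RefSeq start; capitals mark the motifs searched.
Mrpl17, chr7:105811088-105811337, minus strand: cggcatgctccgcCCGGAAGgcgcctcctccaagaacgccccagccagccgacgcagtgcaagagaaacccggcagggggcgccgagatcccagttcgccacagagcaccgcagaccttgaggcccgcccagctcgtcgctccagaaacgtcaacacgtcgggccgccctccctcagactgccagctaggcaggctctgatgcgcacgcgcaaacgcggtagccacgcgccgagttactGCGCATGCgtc
Mrps6, chr16:92058216-92058335, plus strand: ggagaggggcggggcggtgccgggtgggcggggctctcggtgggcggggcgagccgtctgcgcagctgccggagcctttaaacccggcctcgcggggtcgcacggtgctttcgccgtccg
Mrpl52, chr14:54426789-54426908, plus strand: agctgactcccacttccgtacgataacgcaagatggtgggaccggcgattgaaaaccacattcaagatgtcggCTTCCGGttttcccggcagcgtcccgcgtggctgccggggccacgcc
Mrps16, chr14:20393491-20393610, minus strand: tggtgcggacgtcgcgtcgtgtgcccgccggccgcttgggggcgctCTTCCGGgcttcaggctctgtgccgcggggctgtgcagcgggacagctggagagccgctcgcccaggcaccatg
Mrps11 and Mrpl46, chr7:78783090-78783130, plus strand: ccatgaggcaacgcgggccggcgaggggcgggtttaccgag

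The promoter of Mrpl17 holds 1 match to the ETS motif (CCGGAAG, bound by the GABP factor) and, next to its start, 1 to the NRF1 motif (GCATGCGC, given here on the other strand). Those of Mrpl52 and Mrps16 hold the ETS motif on the other strand, and the Mrps6 window holds no motif searched. The stretch printed for Mrps16 lies within the GENCODE span of the gene. Another RefSeq start of Mrps16 has the bases 20393635 to 20393884 before it, just outside that span, and these hold no motif searched. RefSeq leaves 41 bases between the starts of Mrpl46 and Mrps11, whereas the GENCODE starts lie 412 bp apart with the genes overlapping. Windows of 300 bases (250 before and 50 after the start) were found for 68 of 77 members, 74 windows in all, and both strands were searched. The ETS motif was in 33.8% of the member windows, against 19.0% of the 11005 windows of tested genes and 8.86% of all 32851 windows. The share was 35.6% for cytosolic ribosomal protein genes and 23.5% for respiratory chain genes. The YY1 motif (AAGATGGC) was in 16.2%, against 4.81% and 2.75%. The NRF1 motif was in 9.46%, against 5.50% and 2.71%, and it was in 4.11% of the cytosolic ribosomal protein windows and 16.2% of the respiratory chain windows. The letters of these 3 motifs do not contain each other.

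Any of ETS, YY1 or NRF1 was in 37 of the 74 member windows, against 26.7% of the windows of tested genes and 50.7% of those of cytosolic ribosomal protein genes, and these shares were not tested against each other. The cyclic AMP response element (TGACGTCA) was in 2.70% and 3.07%, the E-box (CACGTG) in 9.46% and 10.2%, and the TATA box (TATAAA) in 6.76% and 6.997%, for members and tested genes. Members with the ETS motif had a median fold change of -0.097 (25 genes) and members without it -0.063 (43 genes), with no test of the difference. A match describes letters in the window and does not show a bound factor.

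In the authors' deposited table of a comparison between 2 conditions named only by number, 75 of the 77 members were found by name, and all 75 were tested there with 0 marked significant. Their p-values in the authors' deposited table ran from 0.152 to 0.993, each with a q-value of 0.9999. The authors' deposited table marks 37 of its 14720 tested rows as significant, and 5 of the member rows in it are shared with another gene, Mrps6 with Slc5a3 among them.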

How the data were processed

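RNA sequencing of splenic CD4+ T cells was deposited as 1 library per mouse, 3 AngII and 3 Control. Per the submitters' processing notes the tools were Trimmomatic 0.32, TopHat2 2.1.1 and Cuffdiff, with genome build GRCm38.p3. No annotation release or strand setting is stated. The authors deposited FPKM per gene and library, and a table with a p-value and a q-value per gene from their own comparison, which was used for those values only. FPKM is not a count, so values were tested as log2(FPKM + 1), which understates changes of low genes.

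Genes averaging 1 FPKM or more were fitted together with limma 3.58.1 in R 4.3.3 (eBayes with intensity trend, two-sided, all 6 libraries, no covariate), and p-values were Benjamini-Hochberg adjusted with a threshold of 0.05. The fit was tested on simulated data. Subunit, origin and position of members come from general knowledge of the mammalian mitochondrial ribosome. The members, the lists and the tests were chosen with earlier results of these data known. The naming rule took up to 5 members with the most negative and 5 with the most positive fold change among those whose groups do not overlap, the 5 of smallest p, the 5 highest and 3 lowest in level, the 3 of widest spread, 8 with special roles, and up to 2 genes of smallest p per pathway list. Of the genes this rule names, 1 is not reported here. Groups are said not to overlap where every value of 1 is below every value of the other. Symbols and positions are from GENCODE M21. Transcript length is the median over a gene's protein-coding transcripts, or over all its transcripts where it has no protein-coding one. The NRF1 letters were shortened after longer forms had been searched, with which members stood further above tested genes. Mrpl33 was not analysed here. Of the translation factors and RNA processing genes listed, Mtrfr, Mtres1 and Prorp were not matched. Alternatives were other pseudocounts, filters, scalings and limma settings, library weights, a replicate block, a threshold of 0.1, other definitions of the members, and leaving out libraries. Python 3.11.15, pandas 2.3.3, numpy 2.4.6 and matplotlib 3.10.9 were used.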

Additional observations from a re-analysis of the deposited data

How the results depend on the processing

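Under every alternative run, limma called 0 members and 0 genes of the pathway lists. Without a filter 7 genes of all were called, and leaving out 1 library gave 4 to 9. With equal-sum scaling 41 members were negative (median -0.0142, with -0.0211 for the large and -0.00755 for the small subunit). Groups then did not overlap for 1 member, on the higher side, and for 5.37% of all genes in either direction. Leaving out both AngII replicate 1 and Control replicate 2, chosen after seeing the data, gave 40 negative, a median of -0.00696 (large -0.00615, small -0.0086) and 20 members without overlap (16.3% of all genes); among the 55 members with no opposite-strand overlap, also chosen after seeing the data, it was 5. Leaving out 1 library gave 54 to 71 negative members, medians from -0.098 to -0.0349, and 12 to 28 members without overlap. The count was 28 without AngII replicate 2 (27.7% of all genes), 23 without Control replicate 1 (13.8%) and 20 without AngII replicate 3 (13.0%). It was 16 without Control replicate 3 (19.3%), 13 without Control replicate 2 (9.89%) and 12 without AngII replicate 1 (9.785%). Fewer libraries make non-overlap easier to reach. Library weights gave 27 members at an unadjusted p under 0.05, with a smallest adjusted p of 0.275 (0.275 to 0.9999 over all alternatives). The share of all genes at that level was not counted with these weights, so no excess of members can be read from the 27.

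Of 432 values of named members under the alternatives, 407 kept their direction and 25 changed sign. Equal-sum scaling did so for Mrpl24 (0.0368), Mrpl11 (0.035), Mrps18a (0.000151) and Mrps36 (0.0213), and library weights for Mrps18a (0.016) and Mrps18c (-0.0734). Leaving out 1 library at a time did so for Mrpl24 (-0.0904 to 0.0145), Mrpl11 (-0.141 to 0.0596), Mrpl13 (-0.286 to 0.0202), Mrpl2 (-0.236 to 0.0187), Mrps36 (-0.116 to 0.0257), Mrpl47 (-0.0183 to 0.0794), Mrps18b (-0.00504 to 0.0823) and Mrps18c (-0.0601 to 0.126). With both AngII replicate 1 and Control replicate 2 left out it was Mrpl24 (0.0491), Mrpl1 (0.0374), Mrpl11 (0.117), Mrpl13 (0.0457), Mrpl2 (0.083) and Mrps36 (0.0403). The cause was not tested.

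No label says that replicate numbers pair the mice. Deviations of same-numbered libraries correlated at r = -0.080, -0.023 and -0.035 over all genes and at 0.206, 0.494 and 0.279 over the members. Over the members every library correlated best with its own number, whereas over all genes no library did. Whether the mice were paired was not tested. With the replicate block limma called 3 genes of all and 0 members, with 9 members at an unadjusted p under 0.05. The share of all genes at that level was not counted with the block. With 3 mice a group, even the difference of Mrpl17 (-0.35) had an adjusted limma p of 0.9999, and sequencing depth is known only in relative terms.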
